A study of Homo sapiens with 2 samples.

Results

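Focal adhesion adaptors are the cytoplasmic proteins that link integrins to the actin cytoskeleton, and 7 of their genes were examined here for binding of active YAP: PARVA, PXN, VCL, LPP, TNS3, ZYX and TLN1. Each gene was represented by a window of hg19 drawn around it, and a peak belonged to the gene's window if its summit lay inside. The windows took in 17 of the 9393 peaks in the list and covered 2.095 Mb on 6 chromosomes. The windows of PARVA, PXN, VCL, LPP and TNS3 held peaks, and those of ZYX and TLN1 held none. An annotation of hg19 was not used here. A peak is therefore given by its window and position, and whether it lay in a promoter, an exon, an intron or a neighbouring gene was not determined.

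The 2 samples were a chromatin immunoprecipitation sequencing (ChIP-seq) library and an input DNA library, both from MCF10A cells expressing Flag-tagged YAP-5SA. MCF10A is an immortalised human mammary epithelial line, which the labels call non-transformed in one field and a breast cancer line in another. YAP-5SA is a YAP in which serines that are targets of the LATS kinases are replaced by alanine, so that LATS no longer restrains it through them. Cells were grown in medium with horse serum, EGF, insulin, hydrocortisone and cholera toxin, and the Flag-M2 antibody was used for the precipitation. The input library was not analysed here, and a peak list gives no expression values with which to check the cell type. A library from cells without the Flag-tagged protein, or with endogenous YAP alone, was not analysed here. There was 1 library and no replicate, so nothing below carries a test between samples. The read depth is unknown, because the list gives no read counts.

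YAP has no DNA-binding domain of its own and reaches DNA mainly through the TEAD transcription factors, whose sites carry the letters GGAATG or their complement CATTCC. Focal adhesions form where integrins cluster on the matrix. Talin binds integrin tails and actin, vinculin reinforces that link under tension, and paxillin, parvin, tensin and the zyxin family are recruited as scaffolds. YAP activity is known to depend on adhesion and on tension in the actin cytoskeleton, so these genes lie in a pathway that acts upstream of YAP as well as being possible targets.

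Promoter sequences of the genes are shown first, because they are the only sequences of these loci in the sources used here. They come from RefSeq on GRCh38.p14, a different build from that of the peaks, so they were not placed relative to any peak. Each runs from 250 bases before to 50 bases after an annotated start of transcription. RefSeq gave 15 such sequences for 6 of the 7 genes: 7 for LPP, 3 for TNS3, 2 for PXN and 1 each for VCL, ZYX and TLN1. PARVA had none in the table. The letters GGAATG, on either strand, occurred in the promoters of VCL, PXN and LPP. Capitals mark these letters and, where present, TGANTCA, the core of the AP-1 motif, which was searched on both strands; the search for TGANTCA was added after the sequences had been seen. The VCL sequence is chr10:73997866-73998165 on the plus strand. The PXN sequence is chr12:120250114-120250413 on the minus strand, an internal start of the gene. The LPP sequence is chr3:188212462-188212761 on the plus strand.
VCL promoter: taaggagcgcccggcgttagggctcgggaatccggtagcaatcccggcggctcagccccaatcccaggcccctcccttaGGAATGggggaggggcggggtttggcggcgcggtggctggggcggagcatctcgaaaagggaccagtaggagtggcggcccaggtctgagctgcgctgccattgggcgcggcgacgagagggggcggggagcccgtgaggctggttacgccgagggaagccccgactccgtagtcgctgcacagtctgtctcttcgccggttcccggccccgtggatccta
PXN internal promoter: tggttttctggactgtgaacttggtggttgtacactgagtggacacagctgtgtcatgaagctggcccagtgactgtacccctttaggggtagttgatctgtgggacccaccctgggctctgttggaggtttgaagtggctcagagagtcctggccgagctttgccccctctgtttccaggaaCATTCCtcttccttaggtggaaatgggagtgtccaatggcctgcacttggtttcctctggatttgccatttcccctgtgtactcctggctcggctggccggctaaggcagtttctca
LPP internal promoter: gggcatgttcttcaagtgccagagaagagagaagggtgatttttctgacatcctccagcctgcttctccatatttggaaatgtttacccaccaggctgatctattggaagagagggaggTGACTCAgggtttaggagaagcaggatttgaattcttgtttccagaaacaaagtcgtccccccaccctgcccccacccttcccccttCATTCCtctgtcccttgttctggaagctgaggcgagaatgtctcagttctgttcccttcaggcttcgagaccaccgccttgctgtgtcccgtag

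The VCL match was GGAATG on the gene's own strand and began 171 bases before the start. In PXN the letters were CATTCC, 67 bases before the internal start, while the other PXN promoter had no match. In LPP the letters were CATTCC, 44 bases before the start, and a second LPP sequence that overlaps this one held the same place. The LPP sequence also held TGACTCA, 131 bases before the start. In all, 2 of the 7 LPP sequences held GGAATG. The 3 TNS3 sequences, not shown, held neither GGAATG nor TGANTCA, although the TNS3 window held 2 peaks. The 2 genes whose windows held no peak are shown for comparison, and neither sequence contained GGAATG or TGANTCA. Whether these letters go with peaks was not tested. The ZYX sequence is chr7:143381095-143381394 on the plus strand and the TLN1 sequence is chr9:35732146-35732445 on the minus strand.
ZYX promoter: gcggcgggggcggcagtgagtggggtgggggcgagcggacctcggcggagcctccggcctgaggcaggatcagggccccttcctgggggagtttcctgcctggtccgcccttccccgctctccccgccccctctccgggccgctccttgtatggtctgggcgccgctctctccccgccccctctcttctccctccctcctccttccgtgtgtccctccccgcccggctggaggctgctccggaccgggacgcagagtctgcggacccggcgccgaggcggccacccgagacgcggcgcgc
TLN1 promoter: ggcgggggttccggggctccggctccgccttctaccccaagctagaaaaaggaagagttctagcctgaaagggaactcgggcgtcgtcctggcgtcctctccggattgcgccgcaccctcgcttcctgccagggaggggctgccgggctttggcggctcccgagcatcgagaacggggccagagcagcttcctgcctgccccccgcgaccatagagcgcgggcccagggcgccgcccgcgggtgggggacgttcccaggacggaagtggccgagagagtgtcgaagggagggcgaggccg

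Counted over genes, 3 of the 6 with a sequence (50%) had GGAATG in at least 1 promoter, against 16.7% of all 27305 genes in the table. Counted over sequences, 4 of 15 (26.7%) held it, against 14% of all 35116. These 4 held 3 distinct places, because 2 overlapping LPP sequences shared the same place. With so few sequences, 1 gene more or less moves these shares a great deal, and genes with several starts have more chances to hold a match. Of 38 other focal adhesion genes, 30 had a sequence, and 7 of these (23.3%) held GGAATG: AJUBA, CSRP1, FHL2, KANK1, TNS1, TRIP6 and WTIP. Over their 66 sequences the share was 12.1%. AJUBA, TRIP6 and WTIP encode LIM-domain proteins related to zyxin, but the ZYX sequence itself held no GGAATG and LIMD1 had no sequence. The longer TEAD letters GGAATNT, which can overlap GGAATG, occurred in promoters of 2 of the 6 genes, PXN and TNS3, and in 14.4% of all genes, or in 2 of the 15 sequences (13.3%) and 12% of all sequences. The members' share by gene, 33.3%, was the same as that of the other focal adhesion genes, 10 of 30 (33.3%), which held GGAATNT in 11 of their 66 sequences (16.7%). TGANTCA occurred in promoters of 1 of the 6 genes (16.7%), LPP, against 6 of the 30 other focal adhesion genes (20%) and 9.37% of all genes. The 3 sequences that held it were 20% of the 15, against 9.09% of the 66 sequences of the other focal adhesion genes and 7.71% of all sequences. A match describes the letters and does not show binding.

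The largest number of peaks lay in the window of PARVA, which encodes alpha-parvin, an actin-binding partner of integrin-linked kinase. Its window, on chromosome 11 from 12.35 to 12.61 Mb, held 6 peaks. That is a density of 23.1 per Mb (95% exact Poisson interval 8.47 to 50.2), and the density was 3.47 per Mb over the rest of chromosome 11. Of the 10426 consecutive windows of that length laid along the genome, 49% held 1 or more peaks and 0.767% held 6 or more. Such Poisson intervals here and below cover counting error only and take peaks as independent, which neighbouring peaks are not. Neither these intervals nor the shares of consecutive windows allow for genes chosen with earlier results of these data known.

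The first PARVA peak, from 12398797 to 12399303, stood alone and had a height of 26. Height is the score that the authors' file gives at the summit, whose unit is not stated. The median height of the whole list was 24. After 165 kb without a peak came a run of 5 summits within the far end of the window. They lay from 12563399 to 12564428 with a height of 25, from 12566411 to 12567174 with 22, from 12580425 to 12581049 with 30, from 12586989 to 12587532 with 24, and from 12595245 to 12595834 with 26. The distances between neighbouring summits of this run were 2.83, 13.9, 6.40 and 8.29 kb. All 6 heights fell between 22 and 30, inside the interquartile range of the list, 19 to 30. The peaks in the PARVA window were thus numerous for its length and of ordinary height. The widest of them, at 1030 bp, was among the widest 4.49% of the list.

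In the order of protein-coding genes PARVA is followed by TEAD1, which encodes one of the DNA-binding partners of YAP, and preceded by MICAL2. The next peak beyond the window lay from 12695437 to 12696401, 85.9 kb past its edge, and had a height of 54, taller than any peak in the 7 windows. The run of 5 peaks therefore lay on the side of the next peak, and its assignment to PARVA rather than to TEAD1 or to neither was not tested.

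The window of PXN was the densest. PXN encodes paxillin, a scaffold whose LD motifs and LIM domains dock kinases and vinculin at adhesions. Its window, on chromosome 12 from 120.6 to 120.76 Mb, held 4 peaks. Their density was 25 per Mb (6.81 to 64.0) in the window and 3.71 per Mb over the rest of chromosome 12. Among consecutive windows of that length, 35.5% held 1 or more peaks and 1.53% held 4 or more.

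The tallest peak of all 7 windows lay here, from 120666641 to 120667046, with a height of 43. Only 577 of the 9393 peaks, or 6.14%, were as tall or taller. It was also narrow, at 406 bp, a width that 95.1% of peaks reached or exceeded. A second peak, of height 21, ran from 120667392 to 120668180, so that 345 bases separated the intervals and 896 bp their summits. The next, from 120675020 to 120676084, had a height of 27 and was the widest of the 17 at 1065 bp. The last, from 120702296 to 120702874, had a height of 17 and lay 27.2 kb further on. Peaks in this window therefore covered a wider range of heights, 17 to 43, than those in the PARVA window. In gene order PXN lies between RPLP0, which encodes a ribosomal stalk protein, and SIRT4, and the peaks could not be told apart between these genes.

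**Figure D1:**
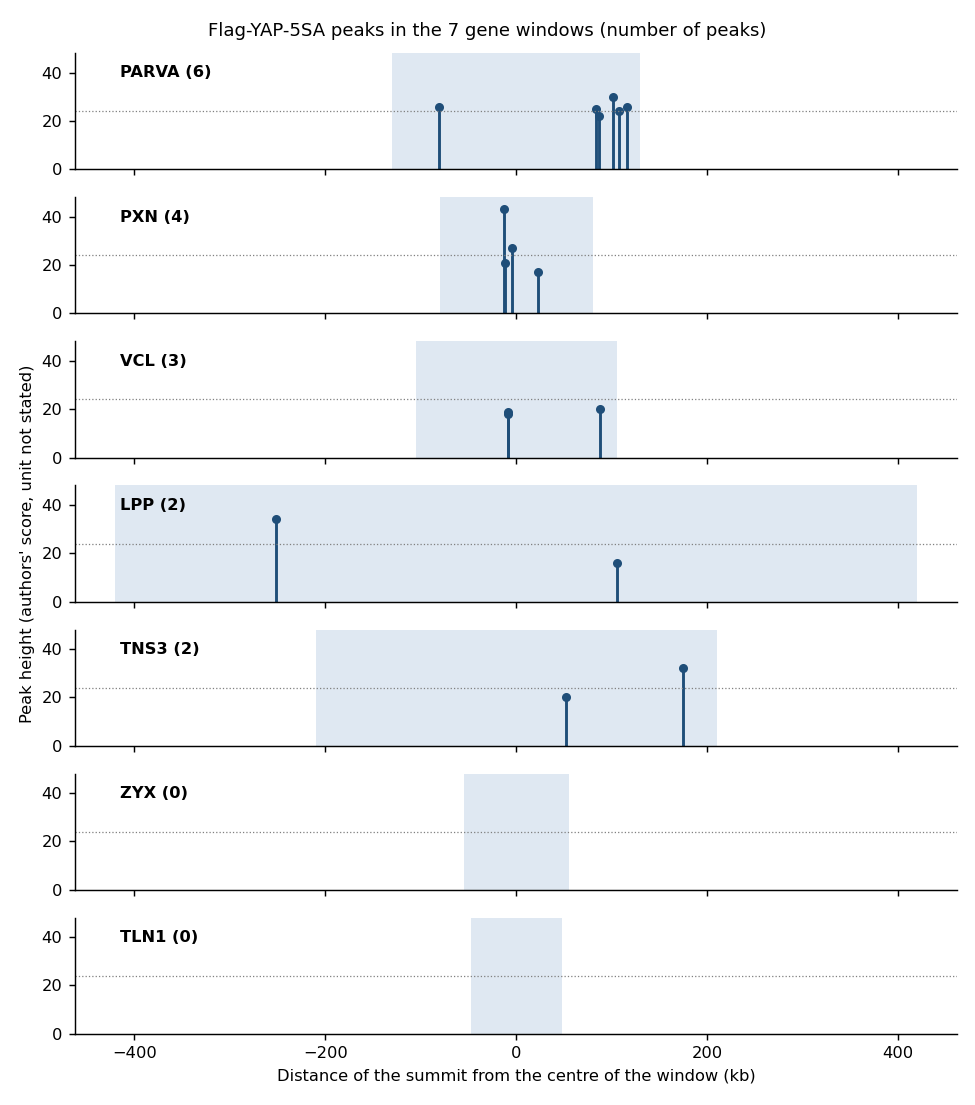
Position and height of the 17 peaks. Each panel is a gene window (shaded), the horizontal axis is the distance of the summit from the window's centre in kb, the vertical axis is the height in the authors' score, and the dotted line is the list median of 24. PARVA has 5 of its 6 peaks at one end of the window, PXN has the tallest peak (43), and ZYX and TLN1 have none.

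VCL encodes vinculin, which binds talin and actin and strengthens adhesions under load. Its window, on chromosome 10 from 75.72 to 75.93 Mb, held 3 peaks. Their density was 14.3 per Mb (2.95 to 41.7) in the window and 3.27 per Mb over the rest of chromosome 10. Of consecutive windows of that length, 42.9% held 1 or more peaks and 6.9% held 3 or more. All 3 peaks were low: heights were 18 from 75815644 to 75816182, 19 from 75816189 to 75816683 and 20 from 75912959 to 75913356. None exceeded the list median of 24.

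The first pair of VCL intervals was separated by 6 bases, and their summits were 432 bp apart, the shortest distance between summits in the whole list. Only 6 of the 9393 peaks (0.0639%) had an interval under 10 bp away. If the pair is counted as 1 peak, VCL has 2 and the 7 windows together have 16. The remaining VCL peak was the narrowest of the 17, at 398 bp, and lay 96.7 kb away towards AP3M1 and ADK, the next genes in order. Beyond the window, a peak of height 17 lay 6.53 kb past the edge.

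LPP and ZYX encode related LIM-domain proteins that bind Ena/VASP actin regulators at adhesions. LPP had the longest window, on chromosome 3 from 187.82 to 188.66 Mb, and 2 peaks. Their density was 2.38 per Mb (0.288 to 8.60) in the window and 3.32 per Mb over the rest of chromosome 3. Of consecutive windows of that length, 82.6% held 1 or more peaks and 64% held 2 or more, so the LPP count was near the background. The first peak, from 187988183 to 187988688, had a height of 34, the second tallest of the 17. The other, from 188345328 to 188345949, had a height of 16, the lowest of the 17. They were 357 kb apart. A peak of height 30 lay 5.89 kb beyond the far edge, in the direction of TPRG1.

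The ZYX window, on chromosome 7 from 143.03 to 143.14 Mb, held no peak. At the density of the rest of chromosome 7, 2.93 per Mb, a window of that length would hold 0.322 peaks, and 26.8% of consecutive windows of that length held 1 or more. Absence of a peak was thus the common state of so short a window. The nearest peak, from 142982375 to 142982964 with a height of 30, lay 47.3 kb before the window, and the next on the other side lay 537 kb beyond it.

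TNS3 encodes tensin-3, which binds integrin tails and actin. Its window, on chromosome 7 from 47.26 to 47.68 Mb, held 2 peaks. Their density was 4.76 per Mb (0.577 to 17.2) in the window and 2.93 per Mb over the rest of chromosome 7. Of consecutive windows of that length, 63.4% held 1 or more peaks and 37% held 2 or more. The peaks lay from 47522119 to 47522619 with a height of 20 and from 47644349 to 47645088 with a height of 32, at a distance of 122 kb. Neither had a neighbour close by, and the next peak beyond the window had a height of 40 at 118 kb.

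TLN1 encodes talin-1, which activates integrins and ties them to actin. Its window, on chromosome 9 from 35.695 to 35.79 Mb, held no peak. The density of the rest of chromosome 9, 3.41 per Mb, would give 0.324 peaks in a window of that length, and 23.9% of consecutive windows of that length held 1 or more. The nearest peaks were of height 62, from 35517801 to 35518760, 177 kb before the window, and of height 19, 159 kb beyond it. In the order of protein-coding genes TLN1 lies between TPM2, which encodes a tropomyosin, and CREB3.

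**Figure D2:**
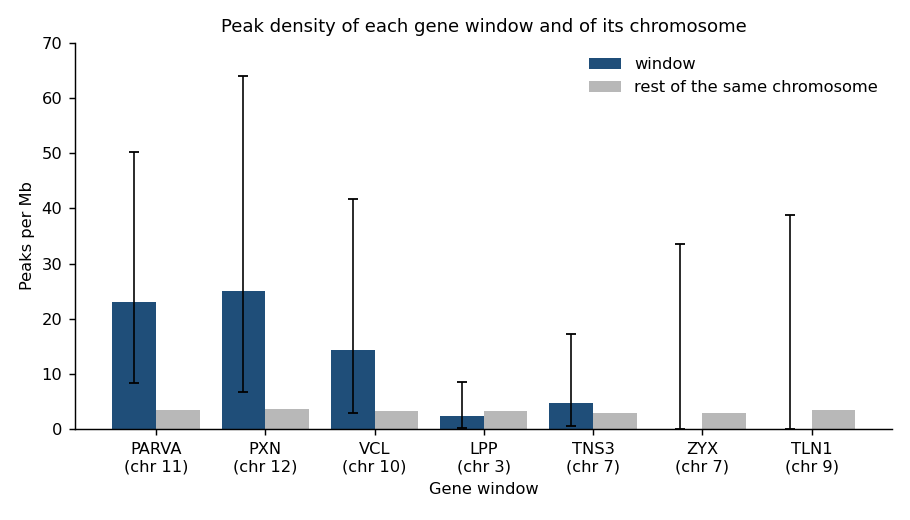
Peaks per Mb in each gene window (blue) and over the rest of the same chromosome (grey). Error bars are 95% exact Poisson intervals and cover counting error only. The intervals of PXN (25 per Mb) and PARVA (23.1 per Mb) lie above their chromosomes, and those of VCL, LPP, TNS3, ZYX and TLN1 include them.

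Taking the windows together, 17 peaks over 2.095 Mb gave 8.11 per Mb (95% exact Poisson interval 4.73 to 13.0), against 3.45 per Mb over the rest of the genome, a ratio of 2.35 (1.37 to 3.77). The windows were placed around genes while the rest of the genome includes long gene-free stretches, and windows around other genes were not used here. The genes were also chosen with earlier results of these data known, which the interval does not allow for. The windows contributed unequally: the ratio was 1.74 without that of PARVA and 3.47 without that of LPP. No interval was computed for these 2 ratios, so whether an excess remains without PARVA was not tested. Of the 17 peaks, 13 lay in the windows of PARVA, PXN and VCL.

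Heights did not set the windows apart. The 17 window peaks ran in height between 16 and 43, with median 24 and mean 24.7 ± 7.02 (SD, n = 17 peaks). The 9376 other peaks ran between 9 and 100, with median 24 and mean 25.8 ± 9.61 (SD). Of the window peaks, 8 (47.1%) were higher than the list median, against 45.5% of the whole list. A height of 40 was reached by 1 of the 17 (5.88%, exact 95% interval 0.149 to 28.7), against 8.67% of the list. A height of 30 or more was reached by 4 (23.5%), in PXN, LPP, TNS3 and PARVA, against 26.6% of the list. The median width was 579 bp in the windows and 611 bp elsewhere, and 2 of 17 peaks were wider than 1000 bp, against 5.26% of the list.

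**Figure D3:**
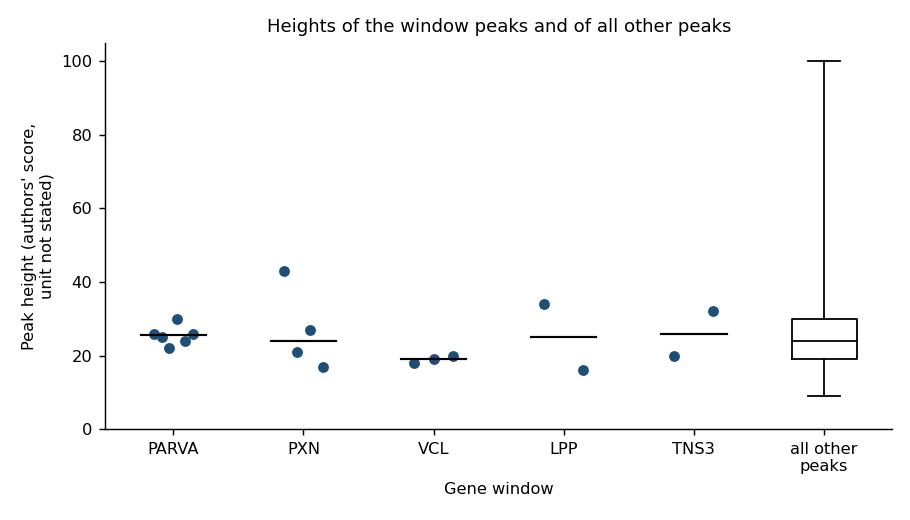
Height of each window peak (points, with the median of each gene as a line) and of the 9376 other peaks (box from the lower to the upper quartile with its median, whiskers to the extremes). The PARVA peaks lie between 22 and 30, the VCL peaks between 18 and 20, and the points of PXN spread from 17 to 43, inside the range of the other peaks.

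Close spacing was common in the windows. Another summit lay within 10 kb of 10 of the 17 window peaks (58.8%, exact 95% interval 32.9 to 81.6), against 19.5% of the whole list. These were 5 of 6 in PARVA, 3 of 4 in PXN and 2 of 3 in VCL, and none in LPP or TNS3. The median distance to the nearest summit was 7.54 kb for window peaks and 56.0 kb for the others. This measure is tied to density, because a window with many peaks has short distances, and members of a pair are counted on both sides. The exact interval takes peaks as independent, which close neighbours are not, so it understates the uncertainty. Without PARVA the share was 45.5% of 11 peaks, and with intervals under 200 bp apart merged it was 50% of 16.

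**Figure D4:**
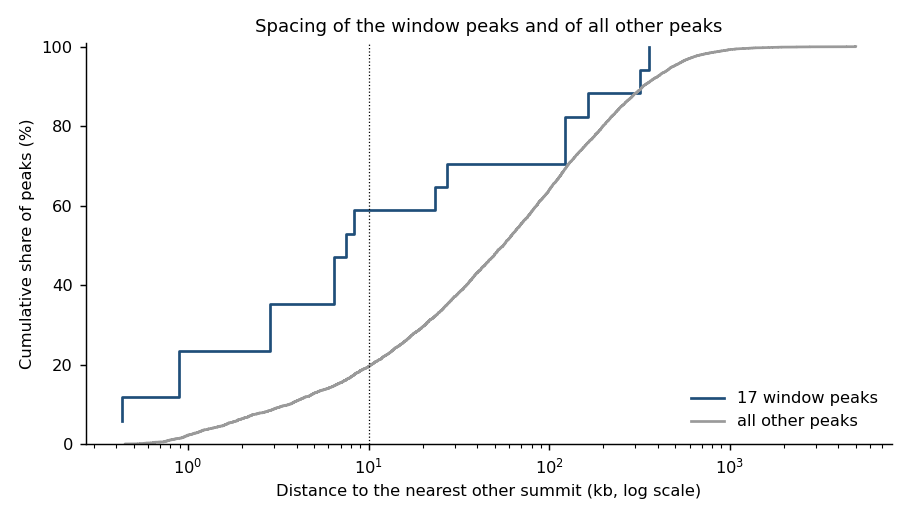
Cumulative share of peaks (vertical axis, percent) by distance to the nearest other summit (horizontal axis, kb, log scale) for the 17 window peaks (blue) and all other peaks (grey). The dotted line marks 10 kb, where the curves stand at 58.8% and 19.5%.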

How the data were processed

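One ChIP-seq peak list from MCF10A cells with Flag-YAP-5SA was used. Reads were aligned with BWA 0.6.1 to hg19 and peaks called with MACS, per the submitters' processing notes; no MACS version, threshold or use of the input is stated there. Per the file headers, a summit track and an interval track were deposited. The height is the score deposited by the authors, with no unit or scaling stated. Summits and intervals were joined by order, and all 9393 summits lay inside their interval. Positions are 1-based.

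Chromosome length was the distance from first to last summit less the longest peak-free stretch. Consecutive windows began at each chromosome's first summit and skipped that stretch. Intervals are exact, at the 95% level, and take peaks as independent. Every peak in the 7 windows is named. The members and lists were chosen with earlier results of these data known. The counting functions were tested on simulated data. Sequences of peaks were not used here. Software was pandas 2.3.3, numpy 2.4.6, matplotlib 3.10.9 and scipy 1.17.1, under Python 3.11.15.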

Additional observations from a re-analysis of the deposited data

How the results depend on the processing

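No paired analysis was possible because the list comes from a single library, which also leaves nothing to drop as a replicate. Among 73 alternative values, 64 stayed within the counting interval of the main value or within 1.5 times the main count. Some of these could not move, because the ZYX and TLN1 windows held no peak. Leaving either out cannot change the height and spacing values, and narrowing them or keeping only higher peaks leaves them empty. Keeping only peaks higher than the list median gave 8 peaks in the 7 windows against 17, by construction, with 1 in LPP, 2 in PXN, 0 in VCL and 1 in TNS3. Widening each window by 50 kb gave 1 peak in ZYX and 5 in VCL. Without the PXN window, the share of window peaks of height 40 or more less that of the other peaks was -8.67 percentage points, against -2.79, because PXN held the only such peak. Laying the consecutive windows from another starting place, an alternative chosen after seeing the data, gave 1.06% with as many peaks as PARVA, against 0.767%. The density ratio ranged from 1.74 without PARVA to 3.47 without LPP. The median height less that of the other peaks was -4 without PARVA and 1.5 without VCL, against 0. Leaving out windows for close neighbours, and merging close intervals there, was also chosen after seeing the data. A single library, unknown depth, DNA copy number not corrected and windows with hand-set edges limit every value.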
